A study of Mus musculus with 6 samples.

Results

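Dnmt1, Dnmt3a and Tet2 encode enzymes that write or oxidise DNA methylation, and the methylation of their own start regions was measured in quadriceps muscle of exercised and sedentary mice. Members were the entries of the deposited methylation table keyed by a RefSeq transcript of one of these 3 genes. They gave 4 gene regions of the 10755 in the table and 242 cytosine positions of 268725. Dnmt3a had separate regions for the transcripts NM_007872 and NM_153743, whose starts lay 84764 bp apart, and these were kept apart.

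Reduced representation bisulfite sequencing (RRBS) cuts DNA at restriction sites rich in CpG, converts unmethylated cytosines with bisulfite and sequences the fragments, so that a methylation level is the percentage of reads at a cytosine that keep the C. The exercised group held 3 C57BL/6 samples from mice that ran on a motorised treadmill for 4 weeks, and the sedentary group held 3 C57BL/6 control samples. The labels place the DNA isolation 3 hours after the last bout. No genotype or age is given, nothing states that the samples came from separate animals, and the p-values therefore measure the spread between these samples.

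DNA methyltransferases place a methyl group on the cytosine of CpG. Dnmt1 copies the pattern onto the new strand after replication, whereas Dnmt3a can methylate DNA that carried no mark, and its transcripts start from separate promoters. Tet2 oxidises 5-methylcytosine, a first step towards its removal, and bisulfite sequencing does not tell the oxidised 5-hydroxymethylcytosine from 5-methylcytosine. Promoters rich in CpG are mostly unmethylated in mammalian tissues.

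Most measured cytosines of the Dnmt3a NM_007872 and Tet2 regions had levels under 10%, whereas 3 of the 9 Dnmt1 positions and 3 of the 7 in Dnmt3a NM_153743 were at or above it. Of the 242 positions, 198 had a mean level under 10%, and all 44 at 10% or more stood alone, meaning that their neighbours within 30 bp (the adjacent base left out) had a median under 10%. Among all positions of the series, 82.2% of the positions at 10% or more stood alone in this sense. The 2 member positions just below the threshold had mean levels of 8.10% and 8.28%, and those just above it 12.0% and 13.3%. Region totals of reads were summed over positions and are named calls below, so a read covering several positions counts more than once. The stand-alone positions made up 18.2% of the positions of the Dnmt3a NM_007872 region and held 90.6% of its methylated reads. In Tet2 they were 12.5% of the positions with 90.2% of the methylated reads, and in the small regions they held 86.9% (Dnmt1) and 92.2% (Dnmt3a NM_153743). Since stand-alone positions were chosen by their own level, large shares of methylated reads are partly built in.

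The promoter windows of Dnmt3a and Tet2 are shown because the sequence around a cytosine separated the positions with high levels from the rest. They come from RefSeq (GRCm38.p6) and run 5′ to 3′ on the gene's strand, from 250 bases before to 50 after the annotated start. Capitals mark CCGG, a palindrome that reads the same on both strands and the site at which RRBS fragments usually begin and end. The windows are chr12:3806730-3807029 (plus strand) for Dnmt3a NM_007872, chr12:3891494-3891793 (plus strand) for Dnmt3a NM_153743 and chr3:133544341-133544640 (minus strand) for Tet2.
Dnmt3a NM_007872: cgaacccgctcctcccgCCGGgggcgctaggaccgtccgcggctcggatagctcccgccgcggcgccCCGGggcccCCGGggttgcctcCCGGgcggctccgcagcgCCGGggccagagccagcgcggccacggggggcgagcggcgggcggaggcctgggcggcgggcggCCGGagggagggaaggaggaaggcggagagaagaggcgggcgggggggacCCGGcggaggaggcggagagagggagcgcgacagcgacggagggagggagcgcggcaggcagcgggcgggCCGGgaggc
Dnmt3a NM_153743: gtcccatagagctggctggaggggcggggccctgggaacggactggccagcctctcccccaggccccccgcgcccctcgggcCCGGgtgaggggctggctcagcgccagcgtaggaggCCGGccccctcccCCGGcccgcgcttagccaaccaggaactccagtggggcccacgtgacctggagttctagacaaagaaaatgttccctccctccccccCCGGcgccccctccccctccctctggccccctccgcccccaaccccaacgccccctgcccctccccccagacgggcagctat
Tet2: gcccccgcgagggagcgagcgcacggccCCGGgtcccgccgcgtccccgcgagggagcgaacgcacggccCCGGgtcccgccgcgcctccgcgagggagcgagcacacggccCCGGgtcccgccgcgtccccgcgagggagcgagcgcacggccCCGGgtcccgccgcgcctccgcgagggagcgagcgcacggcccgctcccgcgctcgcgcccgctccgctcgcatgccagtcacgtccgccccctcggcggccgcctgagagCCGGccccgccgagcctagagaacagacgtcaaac

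The printed windows hold 8, 4 and 5 CCGG, in that order, and 17338 of the 32851 promoter windows in the RefSeq table (52.8%) hold at least 1. A letter match is a description and not evidence of a cut site. The first 4 CCGG of the Tet2 window are spaced 42 bp apart, and within its first 200 bases 91.1% of bases equal the base 42 bp further on, so reads there could belong to more than 1 copy of this repeat. The sources used here do not say whether such reads were assigned uniquely, and the Tet2 values below carry that limit.

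Every stand-alone position that could be placed in a RefSeq window of Dnmt3a or Tet2 was the CpG cytosine of a CCGG. That held for 22 of 22 stand-alone positions, whereas 0 of the 109 other placed positions lay in CCGG. Some of these positions lie past the end of the printed NM_007872 window. They were placed in a further Dnmt3a window, not printed, by matching its CpGs to the measured positions. In all windows of the series that could be placed, 7911 of 8739 stand-alone positions (90.5%) and 255 of 25523 positions under 10% (0.9991%) lay in CCGG. The pattern of the members was thus shared with the rest of the table. No RefSeq window covered the Dnmt1 positions, so their sequence was not analysed here.

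The level of a CCGG cytosine went with the side on which its neighbours were covered. On each strand the nearest measured cytosine was sought on the 5′ and the 3′ side, up to the next CCGG. The 8 Dnmt3a and Tet2 cytosines with covered neighbours on the 5′ side alone had a median level of 98.8% (range 92.7 to 99.8%). The 6 with neighbours on the 3′ side alone had a median of 16.3% (13.3 to 23.7%), and the 8 with neighbours on both sides had 61.0% (47.1 to 75.5%). Other genes gave 98.04% for 2444 cytosines, 18.5% for 2158 and 61.2% for 1271, in the same order. For 4 of the 22 member cytosines the window ended before the next CCGG.

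A pair of strands at one Dnmt3a site shows the contrast. At mm9 chr12 position 3807110, the plus-strand cytosine 130 bp after the NM_007872 start had neighbours on its 3′ side alone and levels of 23.3%, 16.0% and 23.1% in exercised samples 1 to 3, with levels between 17.0% and 20% in the sedentary samples. The minus-strand cytosine of the same CpG, position 3807111, had neighbours on its 5′ side alone and levels of 97.2%, 100% and 99.04% against 96.3%, 100% and 100%. Within both strands the groups overlapped, and between the strands no sample overlapped.

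**Figure D1:**
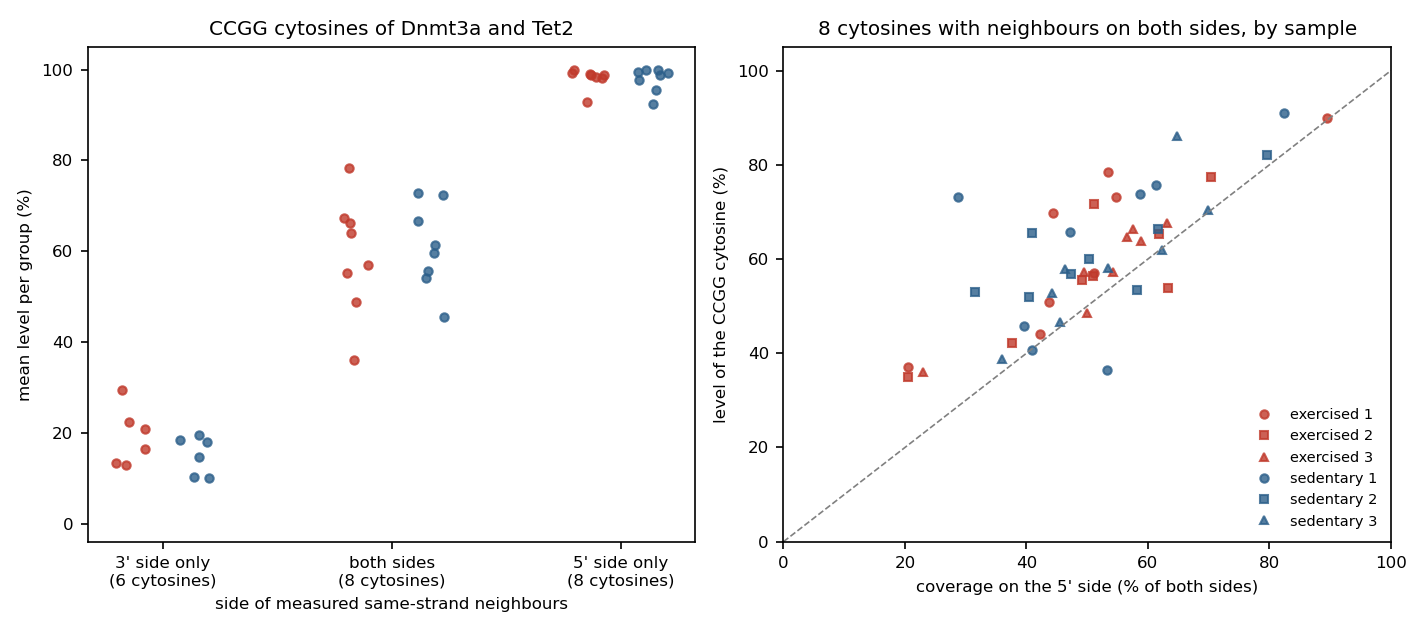
Left, mean methylation level (%) per group of the 22 CCGG cytosines of Dnmt3a and Tet2, by the side on which same-strand neighbours were measured (red, exercised; blue, sedentary; each point is the mean of 3 samples, spread sideways for display). Right, the 8 cytosines with neighbours on both sides in each of the 6 samples, level against the percentage of flanking coverage on the 5′ side, with a dashed line of equality. Levels near 100% are found with 5′ neighbours alone, and most points on the right lie on or above the line.

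Where both sides were covered, samples with more coverage on the 5′ side tended to have higher levels. At the Dnmt3a cytosine 3807062, 82 bp after the NM_007872 start, the levels were 57.0%, 42.3% and 66.3% in exercised samples and 45.9%, 82.1% and 38.8% in sedentary samples. The 5′ neighbour held 51.1%, 37.5% and 57.6% of the flanking coverage in the exercised samples and 39.6%, 79.6% and 36.0% in the sedentary ones. The 6 samples fell in the same order on both measures, and of the 8 cytosines with both sides covered this one had the highest Pearson r, at 0.99. At the other 7, r over the 6 samples was 0.51, 0.51, 0.53, 0.65, 0.72, 0.91 and 0.97, as a description of points that share their reads. The part of fragment ends in these levels was not tested, and neither was whether the level of a CCGG cytosine measures the methylation of the tissue DNA. That limit holds for the stand-alone positions throughout.

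The authors' deposited table gives 4 member positions a class of change, and 1 of them a strong class. How many positions of the whole table carry such a class was not counted, so these counts have no background beside them. The strong class belongs to the Dnmt3a cytosine 3807022 on chr12, 42 bp after the NM_007872 start, in the CCGG nearest the end of the printed window. Its levels were 37.2%, 34.9% and 36.0% in the exercised samples and 73.1%, 53.0% and 52.9% in the sedentary samples, from 191, 126, 186, 52, 300 and 87 reads. Every sedentary sample was above every exercised sample. The difference was -23.6 percentage points, with 36.0% ± 1.13 (SD, n = 3) in exercised and 59.6% ± 11.6 (SD, n = 3) in sedentary samples. The exact two-sided permutation p was 0.1, the smallest that 3 against 3 samples allow, and edgeR's quasi-likelihood test gave an unadjusted p of 0.156 and a Benjamini-Hochberg adjusted p of 0.841. The authors' deposited table lists a p of 0.0249 for this position, without adjustment. The share of flanking coverage on the 5′ side also separated the groups, at 20.5%, 20.4% and 23.0% with exercise and 28.8%, 31.6% and 44.2% in the sedentary group. At every other member cytosine with both sides covered, this share overlapped between groups, and how often it separates in other genes was not counted. Sedentary sample 1 had the highest level but the lowest sedentary share, with 36 and 89 reads at its 5′ and 3′ neighbours. The part of this share in the difference was not tested. The position 43 bp after the start, the other strand of the same CpG, had 5′ neighbours alone and group means of 92.9% ± 8.62 and 92.4% ± 7.69 (SD, n = 3).

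**Figure D2:**
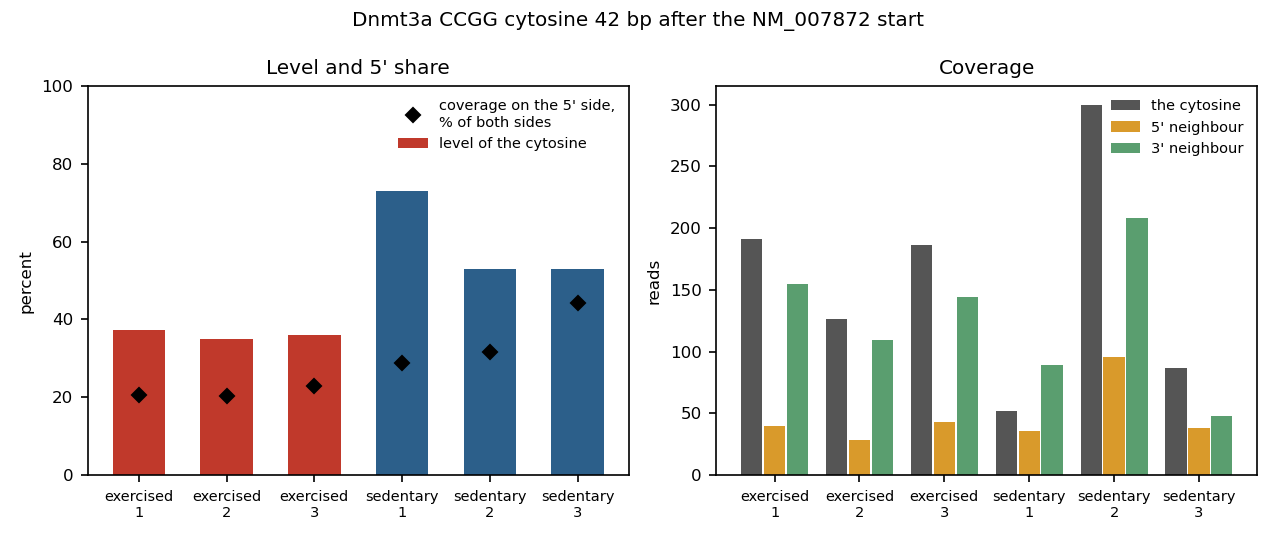
Left, methylation level (%) of the Dnmt3a CCGG cytosine 42 bp after the NM_007872 start in each sample (bars; red, exercised; blue, sedentary) and the percentage of flanking coverage on its 5′ side (diamonds). Right, reads covering the cytosine and its nearest 5′ and 3′ neighbours of the same strand. Bars and diamonds are both lower in the 3 exercised samples, and sedentary sample 1 has the highest level on 52 reads.

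Of the 4 regions, Dnmt1 had the largest difference between groups, with higher levels in the exercised samples. Its region (transcript NM_001199433; mm9 chr9:20756068-20759067, minus strand) held 9 positions between 242 and 331 bp after the start, taking the start to lie 2000 bases into the 3000-bp region. The level over all calls in the region was 32.0%, 34.2% and 35.3% in exercised samples 1 to 3 and 17.5%, 29.1% and 18.6% in the sedentary samples in the same order. The lowest exercised sample lay above the highest sedentary one, and sedentary sample 2 lay nearer to the exercised samples than to its own group. The means were 33.8% ± 1.71 and 21.8% ± 6.40 (SD, n = 3), a difference of 12.1 percentage points (SE 3.83). The exact two-sided permutation p was 0.1, the smallest possible. In edgeR's quasi-likelihood test the unadjusted p was 0.0103 and the Benjamini-Hochberg adjusted p 0.9998 over 10021 regions, so the difference did not pass the threshold of 0.05.

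Over all 10021 regions tested, 0 (0%) passed the adjusted threshold, and 253 (2.52%) had an unadjusted p under 0.05. Limma on log2 odds and a quasi-binomial model also gave 0 adjusted calls, with 283 and 320 regions at an unadjusted p under 0.05. The groups did not overlap in 727 regions (7.25%), of which the exercised samples were higher in 492 (4.91%) and lower in 235 (2.35%). Dnmt1 and Tet2 were among these, and the Dnmt3a regions were not. The median difference over all regions was 0.390 percentage points, and 99.94% of regions had a lower signed difference than Dnmt1. Without stand-alone positions, 96.6% of 9599 regions had a lower one, and 6.78% were at least as far from 0. These ranks take regions of any depth together, and Dnmt1 had 204 to 443 calls a sample over all its positions.

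The distribution of reads over the Dnmt1 region also separated the groups. The stand-alone positions took 42.2%, 40.5% and 40.2% of the reads with exercise and 34.1%, 32.1% and 31.4% in the sedentary group. These shares did not overlap (exact two-sided permutation p = 0.1), and the region level weights positions by their reads. The same shares overlapped between groups in both Dnmt3a regions. How often they do not overlap over all regions was not counted, so the separation has no background beside it. With each position weighted alike the difference was 8.005 percentage points. Without the stand-alone positions, 6 remained, at 10.6%, 7.80% and 4.03% with exercise and 0.699%, 8.31% and 0.714% in the sedentary group. These groups overlapped, through sedentary sample 2, and the difference of 4.25 percentage points (SE 3.18) had an exact two-sided permutation p of 0.3 and an unadjusted edgeR p of 0.195. Without stand-alone positions, none of the 4 member regions had groups that did not overlap or an unadjusted edgeR p under 0.05. Among the 9599 regions tested that way, the groups did not overlap in 9.02% (6.21% higher and 2.81% lower in the exercised samples) and 4.37% had an unadjusted p under 0.05.

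Within Dnmt1 the positions fell into groups that share coverage. The adjacent positions 20756777 and 20756778, stand-alone and listed as neighbouring bases, had a joint level of 51.4%, 58.7% and 69.1% with exercise and 26.0%, 58.8% and 32.5% in the sedentary group. Their difference of 20.6 percentage points rested on 40 to 80 calls a sample, and the groups overlapped through sedentary sample 2 (exact two-sided permutation p = 0.3). The 5 positions from 20756736 to 20756761 lie within 26 bp and had 17 to 20 reads each in 5 samples and 43 or 44 in sedentary sample 2, so they may stem from the same reads. Their joint level was 14.6%, 10.9% and 6.67% with exercise and 1.11%, 11.0% and 0% in the sedentary group, again with sedentary sample 2 within the exercised range. Position 20756825 was methylated in both groups, at 94.7% ± 7.41 and 97.3% ± 4.66 (SD, n = 3).

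The authors' deposited table classes Dnmt1 position 20756736 as hypermethylated after exercise, with a p of 0.0487. Its levels were 11.8%, 11.8% and 11.1% with exercise and 0%, 9.09% and 0% in the sedentary group, from 17 to 19 reads except for 44 in sedentary sample 2. The exercised levels are 2 methylated reads a sample, and the sedentary sample 2 level is 4. EdgeR's quasi-likelihood test gave an unadjusted p of 0.253 and a Benjamini-Hochberg adjusted p of 0.841.

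Leaving out sedentary sample 2 raised the Dnmt1 difference to 15.8 percentage points, with an unadjusted p of 1.22e-04 and an adjusted p of 0.550 in edgeR's quasi-likelihood test. Leaving out sedentary sample 1 lowered it to 9.96 percentage points. Among positions with at least 20 reads in every sample the difference was 8.11 percentage points, with an unadjusted edgeR p of 0.201. The quasi-binomial model on all positions gave an unadjusted p of 0.0857. Unadjusted p-values were 0.00712 in limma on log2 odds, 0.0407 in limma with equal weights and 0.00462 in edgeR's test with the replicate block. The smallest adjusted p of any alternative was the 0.550 above.

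**Figure D3:**
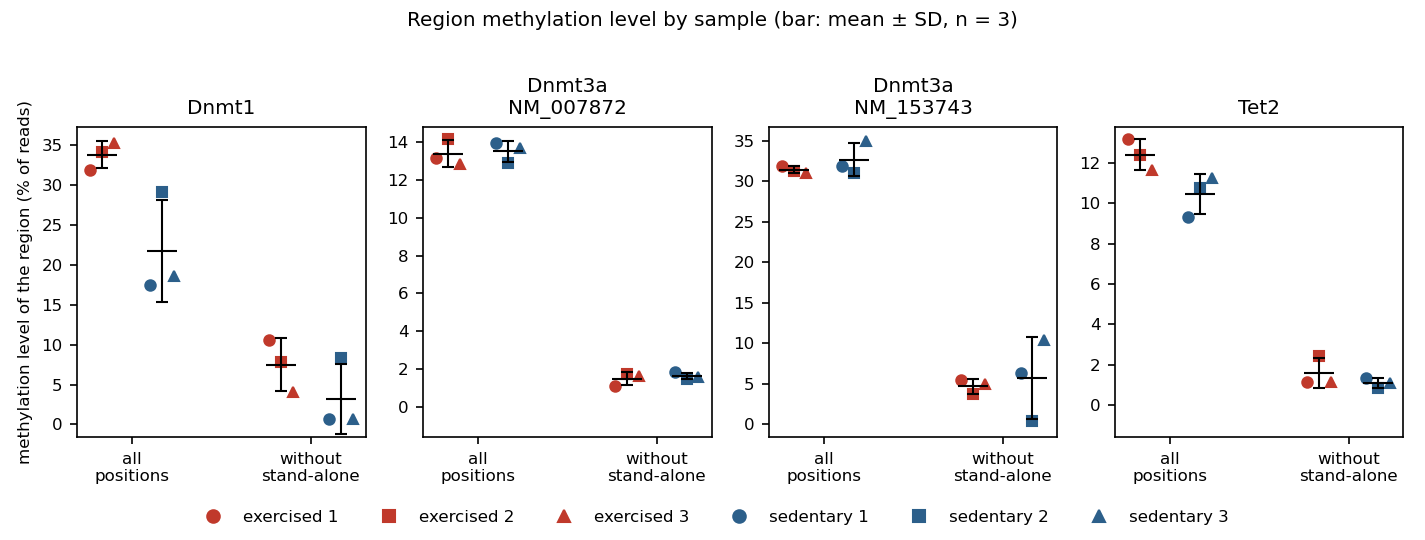
Methylation level (% of reads) of each region in each sample, from all positions and without the stand-alone positions (red, exercised; blue, sedentary; symbols 1 to 3 are circle, square and triangle; black bars, mean ± SD, n = 3). The vertical scales differ between panels. Exercised samples lie above sedentary samples in Dnmt1 and Tet2 when all positions are used, and the groups overlap in every panel without the stand-alone positions.

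Dnmt3a, the methyltransferase that marks new sites, showed levels in its NM_007872 region that hardly moved between samples. This member region had the most positions and calls (mm9 chr12:3804980-3807979, plus strand), with 170 positions from 343 bp before to 758 bp after the start. Its calls, summed over these positions, numbered 6443 to 16304 a sample. The levels were 13.2%, 14.2% and 12.8% with exercise and 13.96%, 12.9% and 13.7% in the sedentary group. The groups overlapped, with means of 13.4% ± 0.699 and 13.5% ± 0.548 (SD, n = 3) and a difference of -0.120 percentage points (SE 0.513; exact two-sided permutation p = 0.9). Without the 31 stand-alone positions the levels were 1.10%, 1.72% and 1.64% against 1.83%, 1.49% and 1.61%, a difference of -0.154 percentage points (SE 0.221). Only 7.77% of regions had a lower level, and the median of all regions was 22.0%.

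The authors' deposited table also classes position 3807635 of this region as hypermethylated (p = 0.0425) and 3807429 as hypomethylated (p = 0.0359), both without adjustment. Position 3807635 had 98.8% ± 2.14 in exercised samples against 86.2% ± 7.10 (SD, n = 3), from 11 to 33 reads. Position 3807429 was at 0% in each exercised sample and at 1.47%, 0.621% and 2.22% in sedentary ones, which is 1 methylated read in each sedentary sample. EdgeR's quasi-likelihood test gave unadjusted p-values of 0.0772 and 0.0594 for them and a Benjamini-Hochberg adjusted p of 0.841 for each.

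Along the NM_007872 region, blocks of CpGs with levels near 0% ran between isolated cytosines with high levels. The 139 other positions had a median level of 1.34% and none exceeded 8.10%. Of the 31 stand-alone positions, 13 had a level above 90% and 7 were under 20%. The highest 3 were 3806681, at 100% in every sample from 21 to 61 reads, 3807343 and 3806699. Position 3807343 had means of 100% and 99.2%, and 3806699 had 100% and 98.3%, in exercised and sedentary samples. At position 3807634, 654 bp after the start, the levels were 92.1%, 63.3% and 42.4% with exercise and 54.3%, 40.0% and 25.8% in the sedentary group. The groups overlapped there, and its difference of 25.9 percentage points was the highest of the 170 positions.

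**Figure D4:**
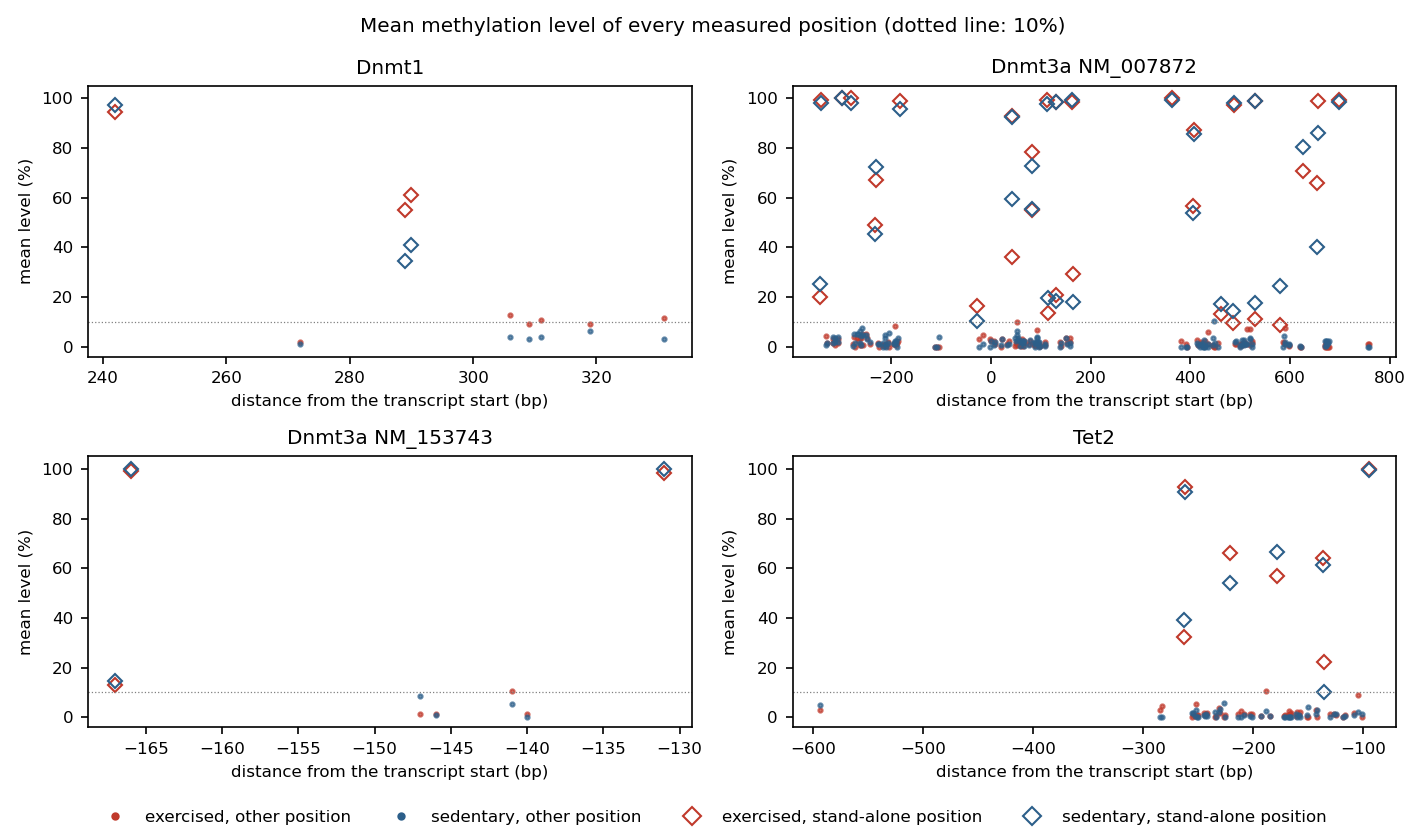
Mean methylation level (%) of all 242 positions against their distance in bp from the transcript start, in exercised (red) and sedentary (blue) samples (mean of 3). Dots are positions whose mean over the 6 samples is under 10%, diamonds are stand-alone positions, and the dotted line marks 10%. Diamonds are scattered between runs of dots near 0% in Dnmt3a NM_007872 and Tet2. In Dnmt1 most exercised dots lie near the 10% line and the sedentary dots below it. Dnmt3a NM_153743 has few dots, the highest at 10.5% in the exercised samples.

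The 3 positions of the NM_007872 region with the smallest p were low in most samples. Position 3807428 was at 0% in all exercised samples and at 26.7%, 4.35% and 0% in sedentary samples, from 14 to 69 reads. Position 3807416 was at 15.04%, 0.901% and 1.36% in exercised samples and at 0% in all sedentary samples, and position 3806775 at 0% in all exercised and 0%, 2.27% and 13.6% in sedentary samples. Each difference was thus carried mainly by 1 library. Their unadjusted p-values in edgeR's quasi-likelihood test were 0.00536, 0.00589 and 0.0163, and each Benjamini-Hochberg adjusted p was 0.841.

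The NM_153743 region of Dnmt3a (mm9 chr12:3889744-3892743, plus strand) had 7 positions, from 167 to 131 bp before the start, all within the printed window. The levels were 31.8%, 31.3% and 31.0% with exercise and 31.9%, 31.0% and 35.0% in the sedentary group. Only sedentary sample 3, with 180 calls in the region, stood outside the narrow range of the rest, and the groups overlapped. The means were 31.4% ± 0.415 and 32.7% ± 2.08 (SD, n = 3), with a difference of -1.26 percentage points (SE 1.23; exact two-sided permutation p = 0.5), and -0.0830 without that sample. Without the 3 stand-alone positions the means were 4.71% ± 0.920 and 5.73% ± 5.03 (SD, n = 3).

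The higher level of this region than of NM_007872 went with its share of reads at stand-alone positions, which was 46.8% against 19.0%. The level at the stand-alone positions alone was 61.6% ± 1.67 with exercise and 63.7% ± 3.34 in the sedentary group (SD, n = 3), close to the 63.5% ± 1.79 and 64.0% ± 2.20 of the NM_007872 region. Position 3891613, the CCGG cytosine 131 bp before the start, was at 98.2% ± 2.04 and 100% in exercised and sedentary samples. Position 3891578 was at 99.02% ± 1.70 and 100%, and its opposite-strand neighbour 3891577 at 12.8% ± 4.55 and 14.6% ± 3.87. Positions 3891597 and 3891603, between these sites and outside CCGG, had 1.30% ± 1.13 against 8.59% ± 11.0 and 10.5% ± 4.88 against 5.22% ± 5.20, with overlapping groups.

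Tet2, the dioxygenase, had a slightly higher level in exercised samples, and a higher share of its reads at stand-alone positions. Its region (transcript NM_001040400; mm9 chr3:133206355-133209354, minus strand) had 56 positions from 594 to 95 bp before the start and 1525 to 3842 calls a sample. The levels were 13.2%, 12.4% and 11.7% with exercise and 9.35%, 10.8% and 11.3% in the sedentary group. The groups did not overlap, although exercised sample 3 and sedentary sample 3 were close. The means were 12.4% ± 0.766 and 10.5% ± 1.001 (SD, n = 3), a difference of 1.96 percentage points (SE 0.728; exact two-sided permutation p = 0.1). The unadjusted p was 0.0391 and the Benjamini-Hochberg adjusted p 0.9998 in edgeR's quasi-likelihood test, and 83.9% of all regions had a lower signed difference. The unadjusted p was over 0.05 with the replicate block (0.0767), with limma on log2 odds (0.0547), at a minimum of 20 reads (0.132) and with equal weights (0.300). It was also over 0.05, from 0.0549 to 0.132, in edgeR's test without exercised sample 1 or 2 or sedentary sample 1 or 2. Among the runs under 0.05 were the quasi-binomial model (0.0451) and edgeR's test without exercised sample 3 (0.0327) or sedentary sample 3 (0.0347). The smallest adjusted p of any alternative was 0.861.

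The Tet2 stand-alone positions took 18.3%, 17.7% and 17.9% of the reads with exercise and 13.3%, 16.8% and 16.7% in the sedentary group, again without overlap (exact two-sided permutation p = 0.1). Their own level was 61.9% ± 4.46 with exercise and 61.1% ± 1.22 in the sedentary group (SD, n = 3), a difference of 0.774 percentage points (exact two-sided permutation p = 1.0). Without them the 49 other positions gave 1.58% ± 0.730 and 1.10% ± 0.255 (SD, n = 3), a difference of 0.478 percentage points (SE 0.446; exact two-sided permutation p = 0.4) with overlapping groups. The groups thus separated in the share of reads at stand-alone positions, and overlapped in the level at either kind of position. As for Dnmt1, how often such read shares separate over all regions was not counted. With each position weighted alike the difference was 0.766 percentage points.

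Among single Tet2 positions, 133207449, the CCGG cytosine 95 bp before the start, was at 100% in every sample except sedentary sample 2, at 98.6%. The next highest stand-alone positions were 133207616, at 92.8% ± 12.6 and 90.7% ± 7.70, and 133207491, at 64.0% ± 12.5 and 61.3% ± 11.3 in exercised and sedentary samples (SD, n = 3). Their groups overlapped. Position 133207575, 221 bp before the start, had levels of 69.7%, 65.4% and 63.8% with exercise and 40.6%, 60.0% and 62.0% in the sedentary group, the 1 Tet2 position whose groups did not overlap. Its unadjusted p in edgeR's quasi-likelihood test was 0.462. The 3 positions with the smallest p were 133207581, 133207504 and 133207589, all at 0% in the exercised samples. Their sedentary means were 5.57% ± 5.34, 4.00% ± 6.93 and 2.09% ± 2.03 (SD, n = 3), and at each at least 1 sedentary sample was at 0% too. The unadjusted p-values in edgeR's quasi-likelihood test were 0.00991, 0.0408 and 0.0430, each with a Benjamini-Hochberg adjusted p of 0.841.

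Counted over all member positions, no excess of differences was seen against the table. Of the 236 positions tested, 0 passed the adjusted threshold in edgeR's quasi-likelihood test or in limma, as did 0 of 253960 in the table (0%). An unadjusted p under 0.05 was reached by 6 member positions, 3 in Dnmt3a NM_007872 and 3 in Tet2, beside 12435 in the table (4.9%). Limma on log2 odds gave 8 member positions, beside 9068 in the table. The groups did not overlap at 7 positions that were higher and 2 that were lower in exercised samples, beside 6.16% of the table (4.01% higher and 2.15% lower). In all, 125 positions were higher in exercised samples, 111 lower and 6 equal.

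The other genes of DNA methylation were read from a list of 49 genes for writers, removal, readers, CpG-binding factors and supply of methyl donor and oxoglutarate. Of these, 29 had a tested region, and 0 passed the adjusted threshold or reached an unadjusted p under 0.05 in edgeR's quasi-likelihood test. Among all 10021 regions, 0 passed the adjusted threshold and 253 (2.52%) had an unadjusted p under 0.05 in that test. Limma and the quasi-binomial model gave 0 adjusted calls as well. The exercised level was higher in 19 and lower in 10, with a median difference of 0.537 percentage points, beside 6117 higher and 3904 lower among all regions. Without stand-alone positions, the count was 13 higher and 14 lower and the median difference -0.0257 percentage points, beside 5375 higher, 4224 lower and a median of 0.152 among the 9599 regions tested that way.

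The smallest p-values among lower regions belonged to Cxxc5 and Uhrf1. Cxxc5, a CXXC-domain protein that binds unmethylated CpG, had 6.70% ± 1.16 with exercise and 9.25% ± 2.24 in the sedentary group, and Uhrf1, which brings Dnmt1 to hemimethylated DNA, had 34.9% ± 1.66 and 38.0% ± 2.10 (SD, n = 3). Among higher regions, Gadd45g, a stress protein linked to demethylation, had 29.8% ± 4.64 and 26.1% ± 2.61, and Mbd2, a reader of methylated CpG, had 20.4% ± 3.46 and 17.7% ± 1.41 (SD, n = 3). The unadjusted p-values in edgeR's quasi-likelihood test ran from 0.0667 for Cxxc5 to 0.159 for Mbd2, and the Benjamini-Hochberg adjusted p was 0.9998 for each. Of the relatives of the members, Dnmt3b differed by 0.543 and Tet3 by -1.14 percentage points, with overlapping groups. The groups did not overlap in 1 of the 29 regions of the list, beside 7.25% of all regions (2.35% lower). It was Ahcyl2, lower in the exercised samples, at 20.2% ± 0.129 and 21.8% ± 1.52 (SD, n = 3).

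The member regions did not share a common order of samples. Across the 6 samples, Pearson's r between regions was 0.71 for Dnmt1 and Tet2, 0.30 for the Dnmt3a regions and -0.42 and -0.68 for Dnmt1 with Dnmt3a NM_007872 and NM_153743. Of 7396 gene regions compared, the closest to Dnmt1 were Gtf2f2 (r = 0.995), Ajm1 (r = 0.967) and Prkag2 (r = 0.964), and 26 reached 0.9. The closest to Tet2 were Taok2, Hspa8 and Eif4ebp2, with r from 0.982 to 0.988, and for Dnmt3a the closest had r from 0.991 to 0.995 (1700001O22Rik, Rasl10a and Ifnar1 for NM_007872, and Zfp518a, Pdia2 and Nt5e for NM_153743). With 6 points such values describe these libraries and carry no test.

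Total coverage of the table ran from 9153526 to 18656340 calls a sample, lowest in sedentary sample 3, and median coverage from 27 to 59 reads. Intervals around region levels treat each call as independent, although a read covering several positions is counted at each. They may therefore be too narrow even for counting error. Nothing shows either that each read is a separate molecule. In sedentary sample 3 the Dnmt1 level of 18.6% had a 95% Wilson interval of 13.9 to 24.5%. Quadriceps is a mixed tissue, and a level cannot tell fewer methylated cells from less methylation per cell. The labelled tissue could not be checked by expression, and 2 of 15 muscle fibre marker genes, Acta1 and Des, had a measured region.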

How the data were processed

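RRBS levels of 3 exercised and 3 sedentary quadriceps samples were used. Per the submitters' processing notes, reads passed through tools among which are Bismark 0.7.7, Bowtie 0.12.9, Trim Galore 0.2.5 and cutadapt 1.0, and the build was mm9; the sources used here give neither settings nor the treatment of fragment ends. The authors deposited, for each position and sample, the methylated fraction (0 to 1) and the count of covering reads, at least 10 in every sample. The fraction times this deposited count came out whole within 0.00236 of a read, which gave methylated and unmethylated reads. Per position, the authors' deposited table adds a signed difference score between group means, an unadjusted p-value and a class.

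Reads were counted at each position and summed per region of at least 3 positions, so a read covering several positions counted more than once. These sums, or the reads of single positions, were tested with edgeR 4.0.16 (R 4.3.3). The quasi-likelihood test used sample terms plus a group term on methylated reads. All regions or positions were tested, with Benjamini-Hochberg adjustment and a threshold of 0.05. The procedure was tested on simulated data. Levels were compared by exact two-sided permutation tests (scipy 1.17.1). Limma 3.58.1 with an offset of 2 reads, a quasi-binomial model, the replicate block, higher coverage, merged strands, equal weights and leaving out each sample were alternatives.

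Symbols were matched for 10655 of 10755 transcripts through RefSeq (GRCm38.p6). RefSeq windows were laid on the regions with the start 2000 bases into each, without converting coordinates; all measured positions fell on CpG in 2409 of 3316 transcripts with at least 5 positions in a window (72.6%). The members and lists were chosen with earlier results of these data known. Named were every member region, in each the 3 positions with the smallest p, the highest 3 stand-alone positions and strong classes of the deposited table, 2 list regions per direction by smallest p, and 3 regions by likeness with at least 10 positions and 20 reads. Positions 3807023, 3807062, 3807110, 3807111, 3807429, 3807634 and 3807635 of Dnmt3a, Tet2 position 133207575, Dnmt3b, Tet3 and Ahcyl2 were chosen after their values were seen.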

Additional observations from a re-analysis of the deposited data

How the results depend on the processing

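No member region or position and no region of the gene list passed the adjusted threshold in any alternative run. The Dnmt1, Dnmt3a NM_153743 and Tet2 differences kept their direction in all 15 alternatives each. The Dnmt3a NM_007872 difference turned to 0.161 percentage points without exercised sample 3 and to 0.103 without sedentary sample 1; the cause was not tested. Leaving out 1 sample at a time gave 9.96 to 15.8 percentage points for Dnmt1, -0.512 to 0.161 for Dnmt3a NM_007872, -2.07 to -0.0830 for NM_153743 and 1.40 to 2.37 for Tet2. Without stand-alone positions, Dnmt1 fell to 4.25 and Tet2 to 0.478 percentage points. Only positions under 10% then remain, so smaller differences in points are partly built in. EdgeR's log2 odds ratio went from 0.788 to 1.19 for Dnmt1 and from 0.282 to 0.488 for Tet2. Their unadjusted p-values in its quasi-likelihood test were then 0.195 and 0.315. For Dnmt3a, the log2 odds ratio went from -0.0143 to -0.162 (NM_007872) and from -0.0589 to -0.0218 (NM_153743).

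The same-number correlations of deviations from the group means were 0.0190, -0.219 and -0.111, beside -0.101 to 0.221 for samples with different numbers. With 3 samples a group, these values cannot settle whether the samples were paired. With the replicate block the differences stayed at 12.1, -0.120, -1.26 and 1.96 percentage points, 0 regions passed, and positions with an unadjusted p under 0.05 went from 12435 to 5834; a minimum of 20 reads gave 8095. Regions with an unadjusted p under 0.05 numbered 253, against 419 without stand-alone positions, 523 without exercised sample 3 and 384 with equal weights. Member positions with an unadjusted edgeR p under 0.05 went from 6 to 11 without sedentary sample 1, beside 12435 and 11839 positions in the whole table. The depth of Dnmt1 (204 to 443 calls a sample, summed over its positions) limits its values.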
